A study of Arundinella anomala and Arundinella fluviatilis and Arundinella hirta with 8 samples.

Results

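Transcript levels of pyruvate orthophosphate dikinase and of the protein that regulates it were examined in leaves of 8 grass species with C4 photosynthesis. They are represented by 3 maize gene models out of the 26274 genes in the deposited table: the dikinase genes GRMZM2G097457 and GRMZM2G306345 and the regulatory protein gene GRMZM2G131286. The models were chosen by identifier, and their enzyme names come from general knowledge of maize, since the deposited files pair no names with identifiers. The 5 *Arundinella* species were *A. hirta*, *A. nepalensis*, *A. pubescens*, *A. fluviatilis* and *A. anomala*. The remaining 3 were *Imperata cylindrica*, *Bothriochloa ischaemum* and *Capillipedium parviflorum*, each from its own genus. All plants were mature wild types kept at 22 °C under 16 h of light and 8 h of darkness, and RNA came from whole tissue of leaf number 3. Each species had 1 library, and the labels do not say how many plants went into it. A difference between species is therefore given without a spread within either of them.

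Pyruvate orthophosphate dikinase converts pyruvate to phosphoenolpyruvate (PEP), using ATP and phosphate. In the C4 cycle of maize the enzyme works in mesophyll chloroplasts, where it renews the PEP to which PEP carboxylase adds bicarbonate. Maize also has dikinase that stays in the cytosol. From general knowledge that could not be checked in the files, GRMZM2G306345 is the model usually given as the C4 dikinase gene of maize, and GRMZM2G097457 is a further dikinase gene. Which of them is the closer counterpart of a dikinase transcript in these grasses was not tested. The regulatory protein is a bifunctional enzyme. It switches the dikinase off by phosphorylating it in the dark and on by removing that phosphate in the light.

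Levels are the deposited FPKM, a unit that scales fragments by length and library size. Which length was used is not stated. Shares, ratios and ranks that set genes against each other rest on that length. Libraries listed between 8142 and 20607 genes above 0. The fewest were in *C. parviflorum* (8142), *B. ischaemum* (9681), *I. cylindrica* (10198) and *A. hirta* (10697). The other 4 *Arundinella* libraries listed 18023 to 20607 genes. FPKM summed to between 212357 and 829005 per library. Whole leaves were used, so fewer cells with a transcript and less transcript per cell cannot be told apart. A value of 0 is given as "listed at 0". Values are listed under maize models, but how fragments were tied to these models is not stated. How far a species' transcripts differ from the maize sequence was not tested.

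The 2 dikinase genes and the regulator occupied 8 of the 36698 lines of the table, because each line is 1 protein model of a gene. GRMZM2G097457 had 3 lines, GRMZM2G306345 had 4 and GRMZM2G131286 had 1. None of the 8 lines was at 0 in all libraries. The cross-reference of identifiers names 5 models of GRMZM2G306345, of which P02 has no line among the 4.

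In 4 of 8 libraries a single protein model carried nearly all of GRMZM2G097457. Model P01 of GRMZM2G097457 stood at 12342 FPKM in *A. anomala*, 5578 in *A. pubescens*, 135 in *A. nepalensis* and 9941 in *I. cylindrica*. It made up at least 98.64% of the gene in these 4 libraries. In *A. fluviatilis* the gene was divided: P02 stood at 11347 FPKM and P01 at 10505, or 51.93% and 48.07%. P02 was then the second most abundant line of that library and P01 the third. The gene was also divided in the 3 libraries where it was lowest: P02 led with 76.87% in *A. hirta* and 72.76% in *B. ischaemum*, and P01 with 78.05% in *C. parviflorum*. Outside *A. fluviatilis*, P02 was between 0 and 7.81 FPKM. Such an even division was uncommon but not confined to the dikinase. Of the 35 genes with over 1 line and at least 1000 FPKM in *A. fluviatilis*, 4 (11.4%) had less than 60% of their FPKM on the highest line, GRMZM2G097457 among them. Over the other libraries this share ran from 0% to 13.3%, and both of these limits were set after the values were seen. Model P03 was at 0.99 FPKM in *A. anomala*, at 0.52 in *A. pubescens* and listed at 0 elsewhere.

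GRMZM2G306345 was carried by model P01 in *A. nepalensis*, where P01 stood at 194.59 FPKM and made up 99.2% of the gene. P01 also held the whole value in *A. hirta* (9.90 FPKM) and *B. ischaemum* (1.16 FPKM). In *A. anomala* P01 was listed at 0 and P05 carried 6.42 FPKM, or 94.97% of the gene. In *I. cylindrica* P03 led P01, at 2.13 against 1.24 FPKM. RSEM, the tool named in the submitters' processing notes, divides fragments between similar sequences by estimate. The division among models of 1 gene, and between the 2 dikinase genes, rests on that estimate. It also rests on how fragments were tied to maize models, which is not stated.

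**Figure D1:**
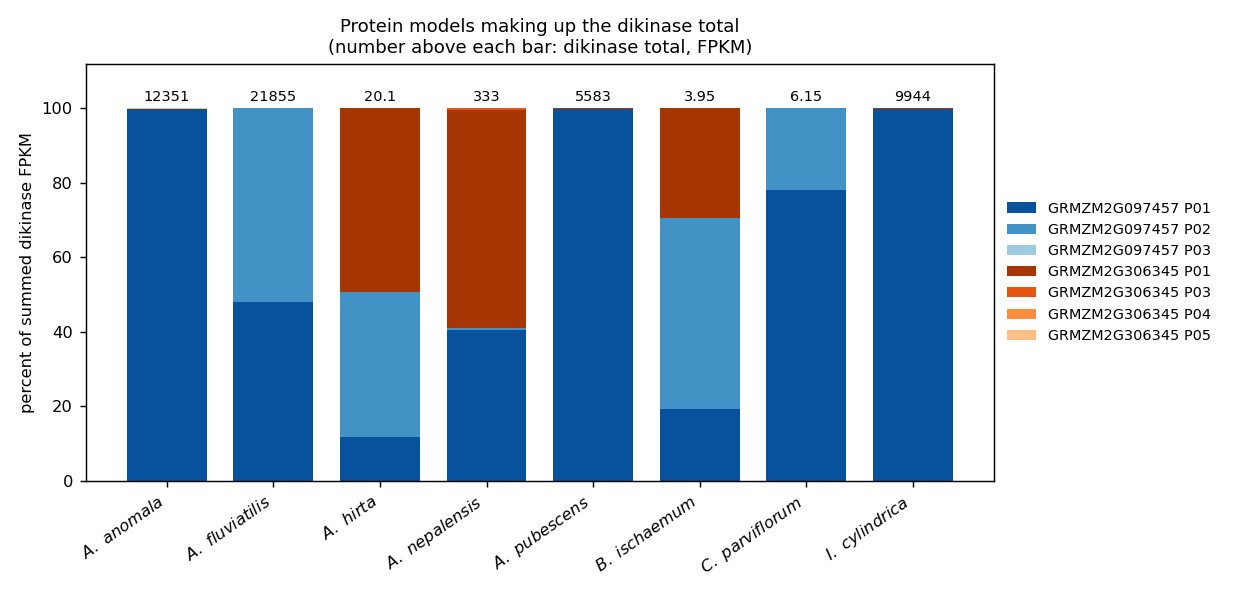
Share of each protein model (percent of the summed FPKM of both dikinase genes, vertical axis) in each of the 8 libraries; blue shades are models of GRMZM2G097457, orange and brown shades models of GRMZM2G306345, and the number above a bar is the dikinase total in FPKM. Model P01 of GRMZM2G097457 fills the bars of A. anomala, A. pubescens and I. cylindrica almost completely, A. fluviatilis is divided between P01 and P02, and GRMZM2G306345 takes 58.87% in A. nepalensis and 49.35% in A. hirta.

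GRMZM2G097457 was among the most abundant leaf transcripts in 4 species, intermediate in *A. nepalensis* and low in the other 3. Summed over its models it stood at 12344 FPKM in *A. anomala*, 21852 in *A. fluviatilis*, 10.16 in *A. hirta*, 137 in *A. nepalensis* and 5580 in *A. pubescens*, against 2.79 in *B. ischaemum*, 6.15 in *C. parviflorum* and 9941 in *I. cylindrica*. The order was thus *A. fluviatilis*, *A. anomala*, *I. cylindrica* and *A. pubescens*, then *A. nepalensis*, and at the low end *A. hirta*, *C. parviflorum* and *B. ischaemum*. *I. cylindrica* lay among the high *Arundinella* species and *A. hirta* close to the low species of other genera, so the values of the 2 groups overlapped.

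GRMZM2G306345 was weakly listed except in *A. nepalensis*. It stood at 196 FPKM in *A. nepalensis*, 9.90 in *A. hirta*, 6.76 in *A. anomala*, 3.66 in *A. pubescens* and 3.32 in *A. fluviatilis*, against 1.16 FPKM in *B. ischaemum*, a listing at 0 in *C. parviflorum* and 3.37 FPKM in *I. cylindrica*. The value of *A. nepalensis* was 19.8 times that of *A. hirta*, the next highest. The order continued with *A. anomala*, *A. pubescens*, *I. cylindrica*, *A. fluviatilis*, *B. ischaemum* and *C. parviflorum*.

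The regulatory protein gene GRMZM2G131286 was above 0 in 5 libraries. It stood at 461 FPKM in *A. anomala*, was listed at 0 in *A. fluviatilis*, and stood at 585 in *A. hirta*, 78.1 in *A. nepalensis* and 187 in *A. pubescens*, against 114 FPKM in *B. ischaemum* and listings at 0 in *C. parviflorum* and *I. cylindrica*. Where it was above 0, the highest value was 7.50 times the lowest. Its highest value came from *A. hirta*, a library low in GRMZM2G097457 (10.16 FPKM). In GRMZM2G306345 *A. hirta* came next after *A. nepalensis*, though at only 9.90 FPKM. A value of 0 for the regulator came from *A. fluviatilis*, the library highest in GRMZM2G097457. Other libraries went the other way. *A. anomala* was high in both, with GRMZM2G097457 at 12344 FPKM, and *C. parviflorum* was low in both, with it at 6.15 FPKM. Of the 153 genes that reached 50 FPKM in every 1 of the 5 libraries listing the regulator, *A. fluviatilis* listed 5 (3.27%) at 0, *C. parviflorum* 43 (28.1%) and *I. cylindrica* 63 (41.2%). At 0 in all 3 were 2 such genes (1.31%). The regulator was among them by construction, since the libraries were divided by its own values. That minimum of 50 FPKM was set after the values were seen.

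**Figure D2:**
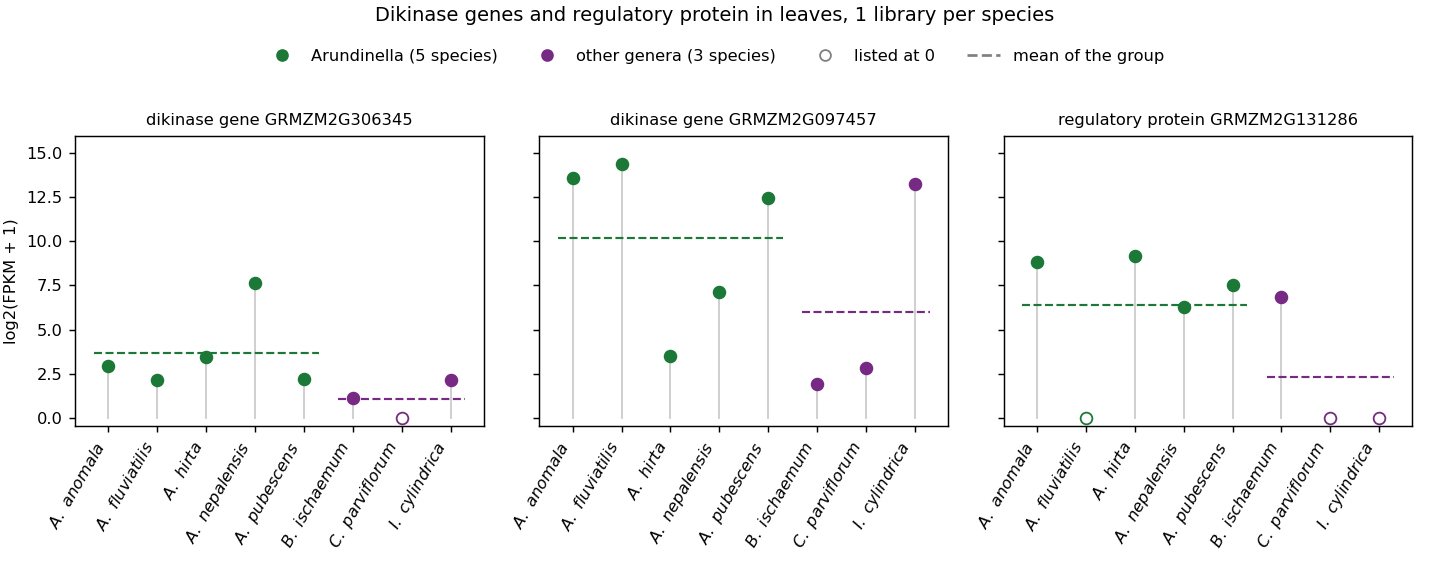
Level of each gene as log2(FPKM + 1) (vertical axis) in the 8 libraries, 5 Arundinella species in green and 3 species of other genera in purple; open circles are values listed at 0 and dashed lines the mean of each group. GRMZM2G097457 is above 5000 FPKM in A. anomala, A. fluviatilis, A. pubescens and I. cylindrica, GRMZM2G306345 stands out in A. nepalensis at 196 FPKM, and the regulator is listed at 0 in A. fluviatilis, C. parviflorum and I. cylindrica.

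The dikinase total, the sum of both genes, was made almost wholly of GRMZM2G097457 where it was high. GRMZM2G097457 contributed 99.95% of 12351 FPKM in *A. anomala*, 99.98% of 21855 FPKM in *A. fluviatilis*, 99.93% of 5583 FPKM in *A. pubescens* and 99.97% of 9944 FPKM in *I. cylindrica*. *A. nepalensis* lay between high and low with 333 FPKM, and it was the only library in which GRMZM2G306345 led, with 58.87% of the total against 41.13% for GRMZM2G097457. In *A. hirta* the genes were even, at 50.65% for GRMZM2G097457 and 49.35% for GRMZM2G306345 of 20.06 FPKM. In *B. ischaemum* GRMZM2G097457 held 70.63% of 3.95 FPKM, and in *C. parviflorum* all of 6.15 FPKM. From *B. ischaemum* to *A. fluviatilis* the dikinase total spanned 5533-fold. *A. pubescens*, the lowest of the 4 high libraries, exceeded *A. nepalensis* 16.8-fold, and *A. nepalensis* exceeded *A. hirta* 16.6-fold.

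Within libraries GRMZM2G097457 exceeded GRMZM2G306345 in 7 of 8 species, though in *A. hirta* only at 10.16 against 9.90 FPKM. By the highest protein model alone *A. hirta* went the other way, at 7.81 against 9.90 FPKM. On the log2(FPKM + 1) scale the difference was 10.64 in *A. anomala*, 12.30 in *A. fluviatilis*, 0.03 in *A. hirta*, −0.51 in *A. nepalensis* and 10.23 in *A. pubescens*, against 0.81 in *B. ischaemum*, 2.84 in *C. parviflorum* and 11.15 in *I. cylindrica*. These differences were above 10 in 4 species and under 3 in the other 4. The value of *C. parviflorum* depends on the pseudocount, since GRMZM2G306345 was listed at 0 there. That of *B. ischaemum* compares only 2.79 with 1.16 FPKM. Their mean was 5.94 ± 5.61 (SD, n = 8; two-sided exact permutation by sign flips, p = 0.0234, smallest possible 0.0078). After Benjamini-Hochberg adjustment over the 4 permutation tests made on these genes, the exact p became 0.0938 and no longer passed 0.05. The difference averaged 6.54 ± 6.24 in the 5 *Arundinella* species and 4.93 ± 5.48 in the 3 other species (SD). That gap of 1.60 was smaller than the spread within either group (exact two-sided permutation test over 56 splits, p = 0.946, adjusted 0.946, smallest possible 0.0179). It was −0.46 without *B. ischaemum*, 4.71 without *I. cylindrica* and 6.12 without *A. hirta* and *A. nepalensis*, so neither its direction nor its size was stable.

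The ratio of regulator to dikinase took very different values. In *A. anomala* and *A. pubescens*, high in both, the regulator stood at 3.73 and 3.35 FPKM per 100 FPKM of dikinase. In *A. nepalensis* it stood at 23.4 per 100. In *A. hirta* and *B. ischaemum* the order was the other way round, with regulator over dikinase at 29.2 and 28.9. In *A. fluviatilis* and *I. cylindrica* a high dikinase total was paired with a regulator listed at 0, and in *C. parviflorum* a low total was. In these 3 libraries the ratio of regulator to dikinase is 0, and its inverse cannot be given.

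On the log2(FPKM + 1) scale, regulator minus dikinase total was −4.74 in *A. anomala*, −14.42 in *A. fluviatilis*, 4.80 in *A. hirta*, −2.08 in *A. nepalensis* and −4.89 in *A. pubescens*, against 4.54 in *B. ischaemum*, −2.84 in *C. parviflorum* and −13.28 in *I. cylindrica*. The 3 values with a regulator at 0 are set by the pseudocount. The regulator was lower in 6 of 8 species, and the mean of −4.11 ± 7.08 (SD, n = 8) was smaller than its spread (two-sided exact permutation by sign flips, p = 0.141, adjusted 0.281). It was −4.27 ± 6.90 in *Arundinella* and −3.86 ± 8.95 in the other genera (SD), a gap of −0.41 (exact two-sided permutation test over 56 splits, p = 0.893, adjusted 0.946).

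**Figure D3:**
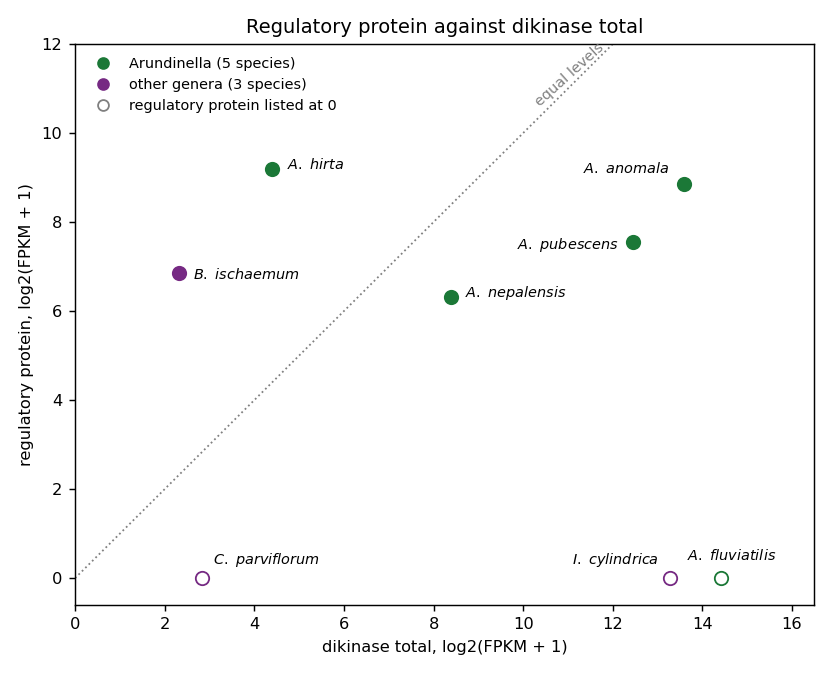
Regulatory protein (vertical axis) against the dikinase total (horizontal axis), both as log2(FPKM + 1), with 1 point per species, Arundinella in green and other genera in purple; open circles are a regulator listed at 0 and the dotted line marks equal levels. A. hirta and B. ischaemum lie above the line, A. anomala, A. nepalensis and A. pubescens below it, and A. fluviatilis, C. parviflorum and I. cylindrica on the floor.

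Ranks within a library do not depend on how its FPKM were scaled for library size, but they do depend on the scaling by length. GRMZM2G097457 was the third most abundant gene in *A. anomala*, the second in *A. fluviatilis*, number 10 in *A. pubescens* and the third in *I. cylindrica*. It took 1.54%, 2.69%, 0.673% and 2.84% of the summed FPKM of these libraries. In *A. nepalensis* it ranked 763 of 18023 listed genes, behind GRMZM2G306345 at 462. In *A. hirta* the dikinase genes held neighbouring places, GRMZM2G097457 at 3460 and GRMZM2G306345 at 3510 of 10697, about 32% to 33% down the list. GRMZM2G097457 was 59.3% down the list in *B. ischaemum* and 36.7% in *C. parviflorum*.

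GRMZM2G306345 lay far down the list in *A. anomala* (12707, or 62.08%), *A. fluviatilis* (14600, 71.61%) and *A. pubescens* (15002, 72.8%). The same held in *B. ischaemum* (7828, 80.86%) and *I. cylindrica* (7103, 69.65%), which listed fewer genes. The regulator ranked 173 in *A. anomala*, 75 in *A. hirta*, 1685 in *A. nepalensis* and 534 in *A. pubescens*, against 323 in *B. ischaemum*. It was thus within the top 10% of listed genes wherever it was above 0, from 0.701% in *A. hirta* to 9.35% in *A. nepalensis*. The regulator outranked both dikinase genes in *A. hirta* and *B. ischaemum* alone.

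**Figure D4:**
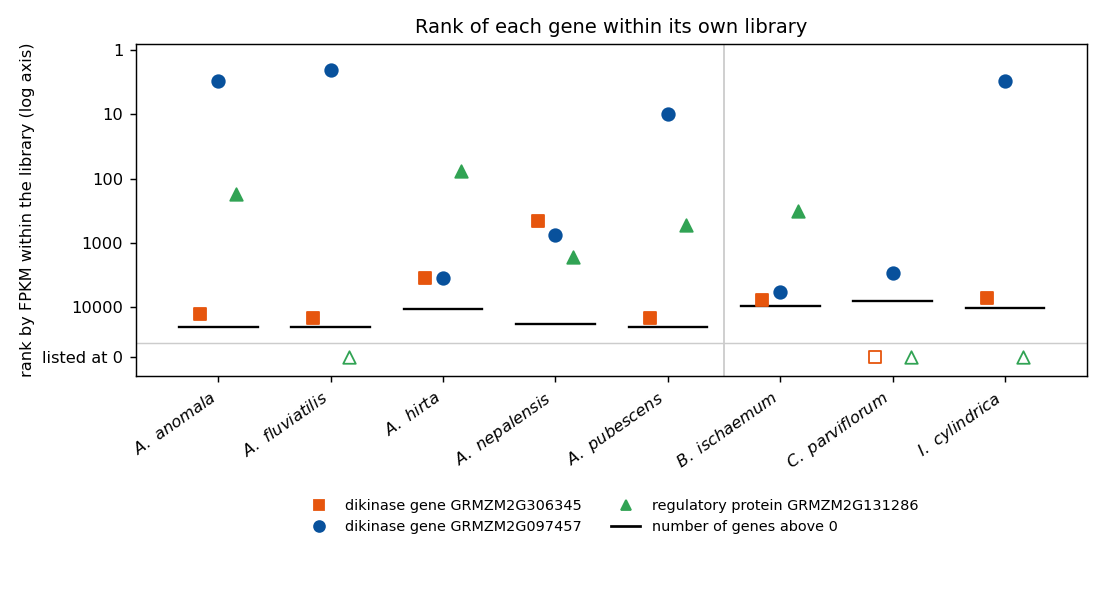
Rank by FPKM of each gene within its own library (vertical axis, log scale, rank 1 at the top) for the 5 Arundinella species on the left and 3 species of other genera on the right; black bars mark the number of genes above 0 and open symbols below the grey line are values listed at 0. GRMZM2G097457 is at rank 2 to 10 in 4 libraries, while the regulator lies between rank 75 and 1685 wherever it is listed.

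Genus was the only grouping with more than 1 library, and for all 3 genes the values of *Arundinella* overlapped those of the other genera. GRMZM2G097457 averaged 10.21 ± 4.72 in *Arundinella* (SD, n = 5) and 6.01 ± 6.31 in the other genera (SD, n = 3) on the log2(FPKM + 1) scale. The fitted difference was 4.20 ± 2.81 (SE; limma, adjusted p = 0.283). For GRMZM2G306345 the means were 3.67 ± 2.28 and 1.08 ± 1.06, with a difference of 2.59 ± 1.33 (adjusted p = 0.198). For the regulator they were 6.38 ± 3.75 and 2.28 ± 3.95, with a difference of 4.10 ± 2.14 (adjusted p = 0.202).

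None of the 3 genes passed, against 1.83% of the 18780 genes tested, and none had an unadjusted limma p under 0.05, against 29.1%. All 3 were fitted higher in *Arundinella*, as were 91.4% of genes. None had groups that did not overlap, against 12.9% of genes. For the median gene the difference was 1.74 log2 units, and relative to it the differences were 2.46 for GRMZM2G097457, 0.85 for GRMZM2G306345 and 2.36 for the regulator. The *Arundinella* libraries also listed more genes above 0, at 10697 to 20607 against 8142 to 10198 in the other genera, and the part of this in the differences was not tested. Without *A. nepalensis*, GRMZM2G306345 was 0.15 log2 units below the median gene (−0.15). Without *I. cylindrica*, the fitted difference of GRMZM2G097457 was 7.83 (limma, adjusted p = 0.14), and without *B. ischaemum* it was 2.15 (adjusted p = 0.639). For the regulator it was 6.38 without *B. ischaemum* (adjusted p = 0.219), the only other genus in which that gene was above 0.

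The remaining steps of the cycle were described with 13 further maize gene models, named from general knowledge and used in an earlier analysis of these data. In the comparison by genus 1 of the 13 passed higher in *Arundinella* and 0 lower (limma, adjusted p), against 1.78% and 0.0426% of all genes, and 4 had an unadjusted p under 0.05, against 29.1% of all genes. The gene that passed, GRMZM2G094712, is listed as an aspartate aminotransferase (adjusted p = 0.0477). It was listed at 0 in all 3 libraries of other genera, so its fitted difference of 5.82 rests on the pseudocount. It was kept for testing through its *Arundinella* values alone, so its passing is not taken as support. With a pseudocount of 10 limma called 0 genes, this gene included, with 4517 at an unadjusted p under 0.05. The median difference of the 13 was 3.86 log2 units, beside 1.74 for all genes tested. Of the 13, GRMZM2G001696 and GRMZM2G383088 were likewise at 0 in all 3 libraries of other genera.

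The models listed as C4 PEP carboxylase (GRMZM2G083841), which uses PEP, and NADP-malic enzyme (GRMZM2G085019), which yields pyruvate, were high in the same 4 libraries as GRMZM2G097457. Of all 26274 genes, 16 reached 1000 FPKM in all of *A. anomala*, *A. fluviatilis*, *A. pubescens* and *I. cylindrica*. Of these 16, 3 were under 200 FPKM in each of the other 4 libraries, and they were GRMZM2G097457, GRMZM2G083841 and GRMZM2G085019. GRMZM2G097457 was the only gene to reach 5000 FPKM in each of the 4. The 4 libraries were taken because GRMZM2G097457 was high in them, and these limits were chosen after the values were seen. Its own place in these counts therefore follows from that choice. With a minimum of 500 FPKM a gene without a name in the files, GRMZM2G046804, joined the 3, and with a ceiling of 100 FPKM GRMZM2G097457 left them, owing to its 137 FPKM in *A. nepalensis*.

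Relative to PEP carboxylase the dikinase total stood at 5.41 times its level in *A. anomala*, 0.881 times in *A. fluviatilis*, 0.757 times in *A. pubescens* and 0.847 times in *I. cylindrica*. In *A. nepalensis* it was 33.3 times a PEP carboxylase at 10.02 FPKM. In *B. ischaemum*, *C. parviflorum* and *A. hirta* that PEP carboxylase model was listed at 0, and the dikinase total was at most 20.06 FPKM. The model listed as the PEP/phosphate translocator (GRMZM2G174107), which carries PEP out of the chloroplast, did not share this pattern. It was highest in *B. ischaemum*, at 1624 FPKM, where the dikinase total was lowest. The model listed as alanine aminotransferase (GRMZM2G088064), which interconverts alanine and pyruvate, was at 413 FPKM in *A. anomala*, 653 in *A. fluviatilis*, 0.99 in *A. hirta*, 84.0 in *A. nepalensis* and 187 in *A. pubescens*, against listings at 0 in *B. ischaemum* and *C. parviflorum* and 8.72 in *I. cylindrica*. It was thus low in *I. cylindrica*, where the dikinase was high.

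**Figure D5:**
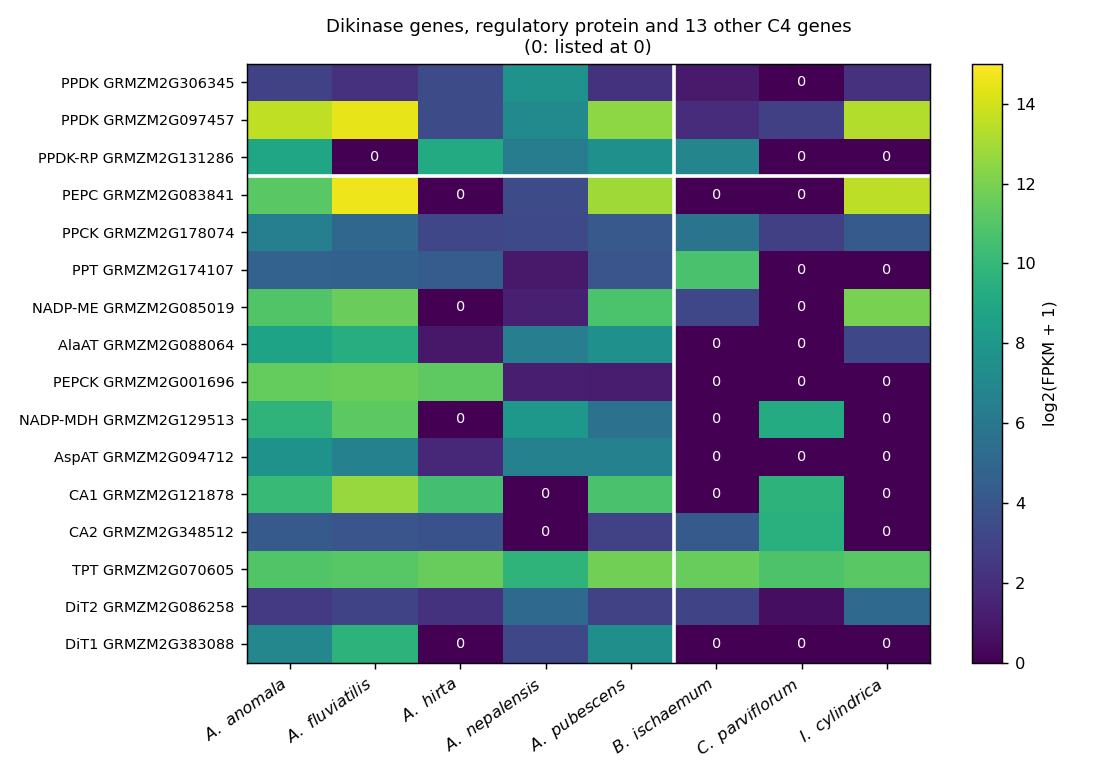
Level as log2(FPKM + 1) (colour) of the dikinase genes, the regulator and 13 other C4 gene models (rows) in the 8 libraries (columns), Arundinella left of the white line and other genera right of it; 0 marks a listing at 0. The rows of GRMZM2G097457, PEP carboxylase (PEPC) and NADP-malic enzyme (NADP-ME) are bright in A. anomala, A. fluviatilis, A. pubescens and I. cylindrica, while the regulator (PPDK-RP) is at 0 in A. fluviatilis and I. cylindrica.

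Likeness of pattern was measured as Pearson's r of log2(FPKM + 1) over the 8 libraries, against each of the 18779 other genes tested. The libraries share species, extent of listing and values of 0, so r is a description. The values of GRMZM2G097457 fall into a set of 4 high libraries and 4 that are lower, and 825 genes had an r above 0.9 with it. The most alike were GRMZM2G074037 (0.99) and GRMZM2G117680 (0.99), which carry no name in the files. PEP carboxylase came at place 11 (0.98), NADP-malic enzyme at 336 (0.93) and alanine aminotransferase at 1677 (0.85).

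The other dikinase gene and the regulator were far from this pattern, at an r of 0.10 and −0.20 with GRMZM2G097457. For GRMZM2G306345 the most alike were GRMZM5G860214 and GRMZM5G836827 (both 0.97), and 66 genes were above 0.9. For the regulator they were GRMZM2G018189 (0.99) and GRMZM2G179518 (0.98), and 15 genes were above 0.9. The r between the regulator and GRMZM2G306345 was 0.40.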

How the data were processed

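Leaf RNA of 8 species was sequenced from TruSeq libraries, per the labels' protocols. The authors deposited FPKM, made with RSEM per the submitters' processing notes. Aligner, versions and the way fragments were tied to maize models are not given in these sources. The files give no read counts, so depth is unknown, and no counting interval can be given. Libraries were matched to species by column name. Of 36698 lines, 35519 carry a protein model name of the deposited cross-reference. Lines were summed per gene to 26274 genes.

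A gene was kept if 3 or more libraries had 1 FPKM or more. Values of log2(FPKM + 1) were then fitted by limma 3.58.1 under R 4.3.3 (trend, two-sided, Benjamini-Hochberg adjustment over all 18780 genes, threshold 0.05), 5 *Arundinella* species against 3 of other genera. This scale understates the change of low genes. Species were the replicates; ancestry is shared within *Arundinella*, and p-values measure only the spread between these libraries. Differences within libraries used exact permutation tests. The limma fit and the exact permutation tests were tested on simulated data. Tables and figures used Python 3.11.15 with pandas 2.3.3, numpy 2.4.6 and matplotlib 3.10.9. Genes named are the 3 dikinase and regulator genes, genes of the C4 list and the 2 genes most like each by r. The genes, lists and tests were chosen with earlier results of these data known. Genes counted as high in 4 libraries were chosen after their values were seen. Alternatives were other pseudocounts, filters, scalings and limma settings, the highest line per gene, and libraries left out.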

Additional observations from a re-analysis of the deposited data

Results flagged for a closer look

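Within *Arundinella*, GRMZM2G306345 in *A. nepalensis* lay far from the other 4 species, at 7.62 on the log2(FPKM + 1) scale. Its gap to the next highest, *A. hirta*, was 0.758 of the range of the group, above Dixon's critical value of 0.71 for 5 samples. The highest and the lowest species were examined in this way for 6 quantities, and chance marks about 1 group in 20. In this library the regulator, at 78.1 FPKM, was at its lowest value above 0. That the species rather than its 1 library stands apart was not tested.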

How the results depend on the processing

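For each of the 3 genes, all 18 alternative fits kept a positive difference and none passed. A positive sign was common, as 91.4% of all genes were fitted higher in *Arundinella* in the main fit. The size was not stable: it ran from 0.68 to 3.88 for GRMZM2G306345, 2.15 to 7.83 for GRMZM2G097457 and 2.57 to 6.38 for the regulator. Relative to the median gene, GRMZM2G306345 was at −0.99 without *A. hirta* and *A. nepalensis*. Adjusted limma p-values ranged from 0.139 to 0.436 for GRMZM2G306345, 0.137 to 0.639 for GRMZM2G097457 and 0.155 to 0.475 for the regulator with 1 library left out, and from 0.131 to 0.85, 0.0816 to 0.6 and 0.194 to 0.521 under the other alternatives. The count of genes called was far less stable than 343: it was 799 with a pseudocount of 0.1, 0 with one of 10 (limma, with 4517 at an unadjusted p under 0.05), 20 under quantile normalization (8 higher, 12 lower, median gene −0.16), 152 under median-of-ratios scaling, 621 without a trend and 5946 without *A. hirta* and *A. nepalensis*. With 1 library left out, and the filter applied anew, it ran from 21 (without *C. parviflorum*) to 6105 (without *A. hirta*), with 93, 94 and 97 when *A. anomala*, *A. fluviatilis* or *A. pubescens* was left out and 81 and 623 when *B. ischaemum* or *I. cylindrica* was. The cause was not tested. The excess of GRMZM2G097457 over GRMZM2G306345 kept an unadjusted exact p under 0.05 in all 14 alternatives (0.0156 to 0.0469; mean 4.86 to 7.99). In the main analysis its exact sign-flip p, adjusted over the 4 permutation tests, was 0.0938 and did not pass. Regulator minus dikinase stayed negative and did not pass (−5.94 to −2.64). The gap in gene balance between *Arundinella* and other genera was −0.46 to 4.71 with 1 library left out, negative without *B. ischaemum*, and 0.49 (pseudocount 0.1) to 6.12 (without *A. hirta* and *A. nepalensis*) otherwise, and never passed. No paired analysis was possible because the replicate numbers only follow accession order and each species has 1 library.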
